A study of Mus musculus with 6 samples.

Results

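The genes described here build peroxisomes or work inside them: 35 listed genes, measured in the liver of 6 mice. They were found by taking each probe set that the platform annotation ties to exactly 1 of the 35 symbols, which gave 66 of the 45037 probe sets tested and 35 of the 18193 genes. There were 24 probe sets of 12 peroxins, 18 of 12 enzymes of fatty acid oxidation, 9 of 4 membrane proteins, 9 of 3 enzymes of ether lipid synthesis, 5 of 3 other enzymes and 1 of Pmp22. All mice were male BALB/cCrSlc mice, an inbred albino strain, sampled at 17 weeks of age after 10 weeks on a low-protein diet based on AIN-93M and 3 h without food. The control diet, 10C, held 10% casein, and the diet 6C+4CP held 6% casein with 4% fish collagen peptide, so that less casein and added peptide cannot be told apart. Each diet was fed to 12 mice, of which 3 of medium food efficiency were measured, 1 array per mouse.

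Peroxisomes are small organelles with a single membrane, abundant in hepatocytes, that shorten very long-chain and branched fatty acids and the side chains of bile acid precursors, and break down the hydrogen peroxide this makes. Peroxins place membrane proteins, import enzymes from the cytosol and divide the organelle. In rodent liver many of these genes, above all those of the oxidation cycle, are known targets of PPARa, a receptor that responds to fatty acids. Symbols of all 35 members matched the RefSeq gene table by Entrez identifier. Pmp22 as annotated here is peripheral myelin protein 22, a myelin gene, although PMP22 is also an older name of the peroxisomal gene Pxmp2, so it is kept apart below.

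The deposited values behave as logarithms and are read as log2, a base the sources used here do not give, so each fold below rests on that reading. Of all probe sets 17.3% ranged over more than 0.01 between the 6 mice and are called varying. The rest are called shared, as they held nearly 1 value in all mice, which does not show whether the mice differed. Among the members 33 of 66 varied, and 26 of the 35 genes had a varying probe set. Among the members the threshold of 0.01 falls in a wide gap. Their widest shared range was 0.000111 (Pxmp4, 1422780_at), and their narrowest varying ones were 0.0574 (Far1) and 0.0920 (Cat, 1416429_a_at). Outside the members some probe sets came nearer to it, such as Pex5l 1438399_at, which ran from 6.139 to 6.147 and is called shared. When all probe sets were cut into 4 equal classes by mean value, 42 members fell in the top class, where 32 of them varied against 46.9% of all. Of the 24 members in the lower classes 1 varied.

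**Figure D1:**
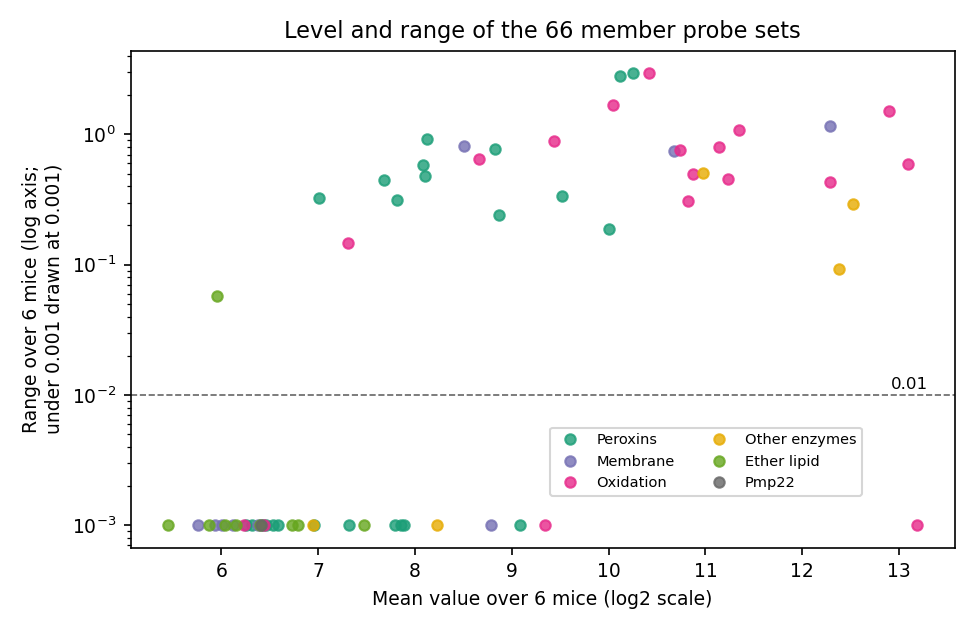
Mean value over the 6 mice (x axis, log2 scale) against the range over the same mice (y axis, log axis, ranges under 0.001 drawn at 0.001) for the 66 member probe sets, coloured by role, with the 0.01 threshold dashed. The 33 shared probe sets lie along the bottom of the plot, mostly at low values, with Scp2 1426219_at at 13.19 on the far right.

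Hepatocyte markers were high in every mouse, with Apoa1 at 13.67 to 13.82, Ttr at 13.87 to 13.93 and Alb at a shared 14.23. Of the 5 that varied 1 was higher and 2 were lower in 6C+4CP without overlap, against 10.8% and 9.11% of all varying probe sets. The hepatocyte list summed to 79.3 to 80.2 in 10C and 79.2 to 80.3 in 6C+4CP. Of 46 measured markers of 9 other cell types 13 varied, and 2 did not overlap between the diets, against 19.9% of all varying probe sets. They were Ighm of B cells, lower (log2 difference -0.66), and Cidec, a lipid droplet gene listed for adipocytes, higher by 0.20. Summed Kupffer cell marker values were 60.7 to 63.4 in 10C and 59.7 to 62.6 in 6C+4CP, and those of stellate cells 54.4 to 55.1 and 54.6 to 55.0. Of the varying markers, 4 of 5 of Kupffer cells (median difference -0.19) and 3 of 4 of stellate cells (-0.0076) had lower means in 6C+4CP. Their part in the results was not tested, and in whole tissue fewer cells of a type and less RNA per cell cannot be told apart. The third 10C mouse (10C replicate 3) stood nearer to a mouse of the other diet than to its own: across varying probe sets, which are not replicates, its r was 0.985 to 6C+4CP replicate 2, and 0.971 and 0.973 to the other 10C mice. Results are therefore also given without it. As this mouse was picked for its nearness to the other diet, leaving it out tends to widen differences between the diets. Values without it are thus no firmer evidence of a difference.

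Pex11a had the widest gap between the diets of all members. Most oxidation probe sets that varied had higher means in 6C+4CP, and the peroxins had a smaller median difference. The diets overlapped in most varying probe sets of both groups, 8 of 14 for oxidation and 8 of 12 for the peroxins. Among varying probe sets 12 of 14 of the oxidation group had a higher mean in 6C+4CP (median difference 0.27, or 0.11 without 10C replicate 1 and 0.40 without 10C replicate 3), against 8 of 12 of the peroxins (median 0.035) and 47.9% of all varying probe sets (median -0.0040). Over all members the diets did not overlap in 11 of 33 varying probe sets, against 19.9% of all, and the difference exceeded 0.5 in 8 of 33, against 7.35%. Limma fitted to all 45037 probe sets called 0 members at an adjusted p under 0.05, with 7 of 33 varying members at an unadjusted p under 0.05 against 12.9% of all varying probe sets. That fit called 251 probe sets (0.557%), of which 240 were shared values with differences of at most 2e-08. Fitted to the 7791 varying probe sets alone, limma called 0 (0%) in all, members included, with 8 members at an unadjusted p under 0.05 against 14.6%. The differences below are therefore descriptions of 3 mice against 3, with limma's SE from the fit to all probe sets.

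**Figure D2:**
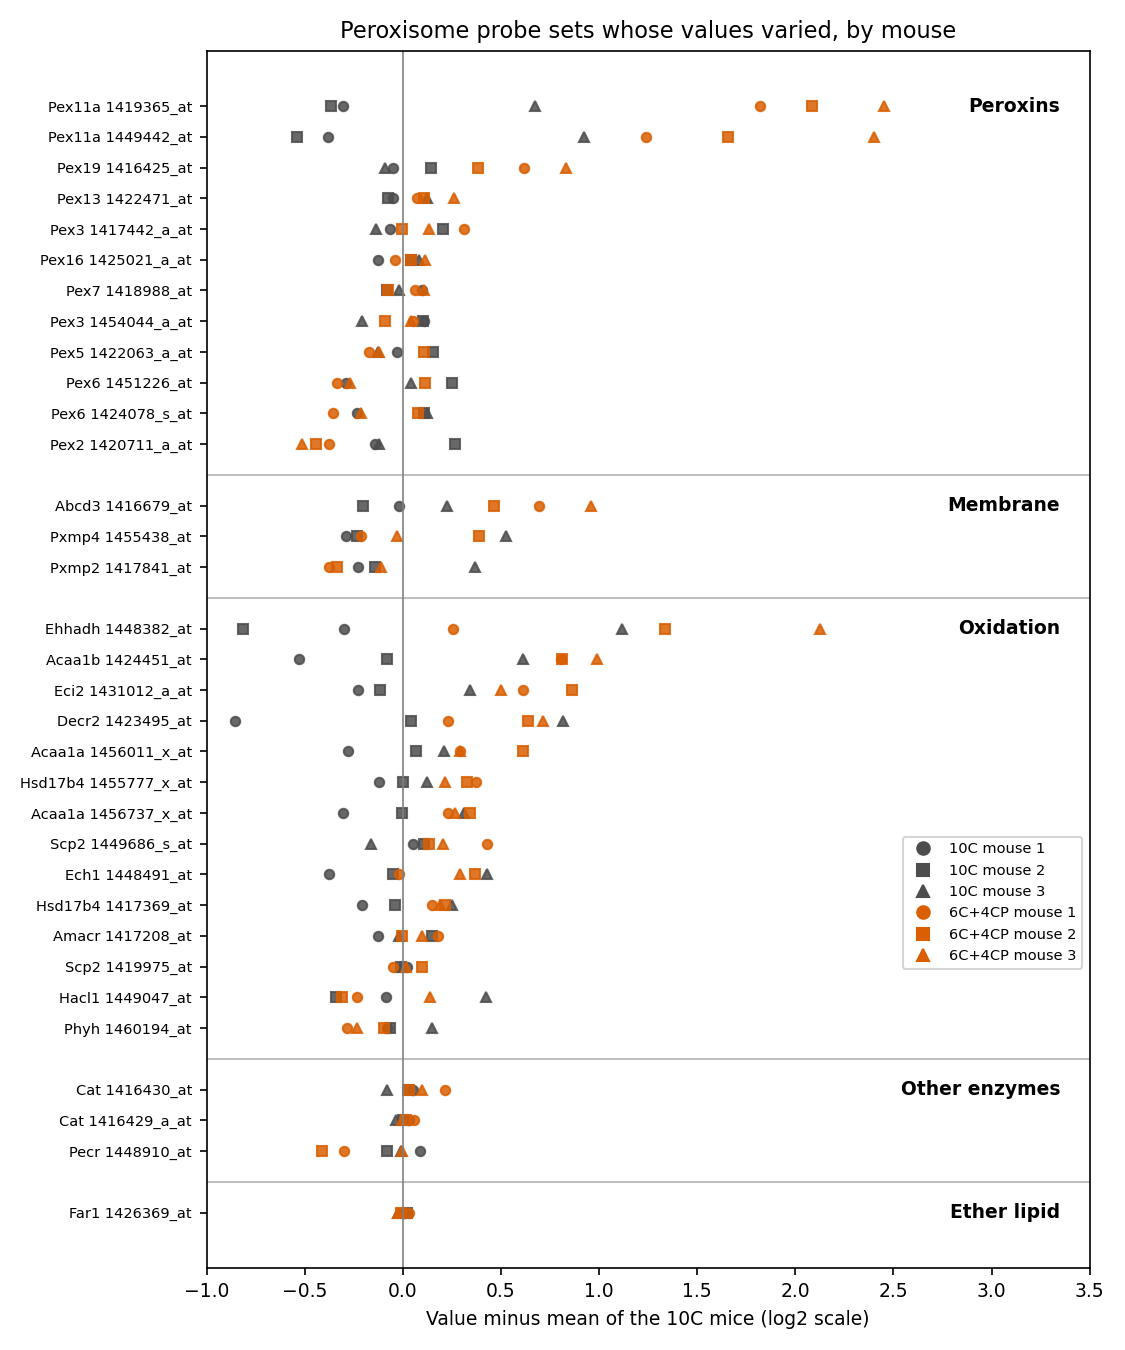
Each row is 1 of the 33 varying member probe sets, grouped by role, and each point is 1 mouse, placed at its value minus the mean of the 10C mice (x axis, log2 scale). The labels do not pair mice of the same number. The 3 mice of 6C+4CP lie to the right of all 10C mice in 9 rows, and to the left in Pex2 and Phyh.

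The promoter sequence of Pex11a is shown because this gene had the largest difference, that of Acaa1b because it had the largest difference among oxidation genes whose diets did not overlap, and that of Cat because it came closest to the motif searched. The motif was AGGTCA repeated in the same direction with 1 base of any kind between the copies, to which PPARa with its partner receptor is known to bind, searched on both strands from 250 bases before to 50 after each RefSeq start (GRCm38.p6). The 250 bases before the start are printed 5′ to 3′ on the gene's strand, and capitals mark the stretch with the fewest letters that differ from the motif or its reverse complement.
Pex11a (chr7:79743132-79743381, minus strand): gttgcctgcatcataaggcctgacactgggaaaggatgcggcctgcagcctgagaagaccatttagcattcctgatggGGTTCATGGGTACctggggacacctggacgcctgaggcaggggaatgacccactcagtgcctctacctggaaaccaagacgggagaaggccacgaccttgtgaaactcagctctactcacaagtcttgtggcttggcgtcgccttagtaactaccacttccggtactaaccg
Acaa1b (chr9:119157094-119157343, minus strand): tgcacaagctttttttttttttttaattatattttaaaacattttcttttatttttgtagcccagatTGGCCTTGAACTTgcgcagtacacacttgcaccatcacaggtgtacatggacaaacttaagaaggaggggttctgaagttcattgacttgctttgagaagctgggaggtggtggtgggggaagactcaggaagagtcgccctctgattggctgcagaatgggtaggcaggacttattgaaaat
Cat (chr2:103485154-103485403, minus strand): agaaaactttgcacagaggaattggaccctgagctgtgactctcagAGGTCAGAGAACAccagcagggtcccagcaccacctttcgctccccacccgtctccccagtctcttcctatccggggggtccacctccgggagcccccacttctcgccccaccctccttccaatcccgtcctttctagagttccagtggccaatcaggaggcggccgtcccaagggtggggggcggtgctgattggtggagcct

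RefSeq windows were found for 29 of the 35 members (36 windows), and Abcd2, Amacr, Hsd17b4, Pex2, Pex19 and Pxmp2 had none. The full motif was in 0 of the 36 windows and in 0.0396% of all 32851 windows. With up to 2 of its 12 fixed letters differing, a looser search added after the first gave no match, it was in 1 member window (2.78%), that of Cat, and in 3.86% of all. In Cat 2 letters differed, starting 204 bases before the gene's start, while 4 differed in Acaa1b and 5 in Pex11a. A single AGGTCA, which is also part of the full motif, was in 3 member windows (8.33%), those of Cat, Phyh and Scp2, against 16.3% of all windows. A match is only a run of letters, and its absence says only that these letters are not in this window.

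Pex11a, a membrane protein that elongates peroxisomes before they divide, was higher in 6C+4CP in both of its probe sets. On 1419365_at the 10C mice read 8.75, 8.69 and 9.73 and the 6C+4CP mice 10.87, 11.14 and 11.51. The lowest 6C+4CP mouse lay more than 1 log2 unit above the highest 10C mouse, which was replicate 3. The means were 9.06 ± 0.58 (SD, n = 3) and 11.17 ± 0.32, a log2 difference of 2.12 (SE 0.38), or 4.34-fold. On 1449442_at the values were 8.98, 8.83 and 10.29 against 10.61, 11.02 and 11.77, which differed by 1.77 (SE 0.57), or 3.40-fold. Both probe sets put 10C replicate 3 above the other 10C mice and 6C+4CP replicate 3 highest of all.

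Neither Pex11a probe set passed limma, with adjusted p of 0.466 and 0.938 in the fit to all probe sets and 0.105 and 0.217 among varying ones. With 1 mouse left out the difference on 1419365_at ran from 1.93 (without 10C replicate 2) to 2.45 (without 10C replicate 3). On 1449442_at it ran from 1.45 (without 6C+4CP replicate 3) to 2.23 (without 10C replicate 3). Without 10C replicate 3 the adjusted p of 1419365_at was 0.0984 in the fit to all and 0.0527 among varying probe sets (0.0527 to 0.888 over 20 alternatives).

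Of the peroxins that place membrane proteins only Pex19 separated the diets, and the means of the others differed by less, also upward, with overlap. Pex19, the cytosolic carrier of newly made peroxisomal membrane proteins, read 7.76, 7.96 and 7.72 in 10C and 8.43, 8.20 and 8.64 in 6C+4CP on 1416425_at, with no overlap. The difference was 0.61 (SE 0.15), or 1.53-fold (limma, adjusted p = 0.781, and 0.158 among varying probe sets). The other 2 Pex19 probe sets held shared values of 7.32 and 6.31. Pex3, the membrane dock for Pex19, differed by 0.15 (SE 0.14; 0.063 to 0.25 with 1 mouse left out) on 1417442_a_at and by 0.000215 (SE 0.11) on 1454044_a_at, both with overlap. Pex16, which acts with Pex3 in early membrane assembly, ran from 8.72 to 8.93 in 10C and from 8.81 to 8.96 in 6C+4CP on 1425021_a_at, and its second probe set was shared.

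Import factors that varied overlapped between the diets. Pex5, the receptor for enzymes that end in the common carboxy-terminal targeting signal, averaged 7.04 ± 0.14 under 10C and 6.98 ± 0.15 under 6C+4CP on 1422063_a_at (SD, n = 3). Pex7, the receptor for the amino-terminal signal carried by thiolase, had means of 9.99 ± 0.092 and 10.02 ± 0.094. Pex13, part of the docking complex in the membrane, differed by 0.15 (SE 0.084) on 1422471_at, and by 0.092 without 6C+4CP replicate 3. Pex14, the other docking protein, had a single probe set with a shared value of 7.79.

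Pex2 was the peroxin with the widest gap in the other direction. It is a ubiquitin ligase subunit that marks the import receptors for recycling. On 1420711_a_at it read 8.91, 9.31 and 8.93 in 10C and 8.67, 8.61 and 8.54 in 6C+4CP. All 6C+4CP mice lay below all 10C mice, and 10C replicate 2 stood highest. The difference was -0.44 (SE 0.14), or 1.36-fold lower, and -0.31 without that mouse (limma, adjusted p = 0.938, and 0.211 among varying probe sets). Its partner Pex10 had 1 shared value of 6.46.

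Pex6, an ATPase that pulls the used receptor from the membrane, differed by -0.17 (SE 0.17) on 1424078_s_at and -0.16 (SE 0.21) on 1451226_at, with overlap. With 1 mouse left out these ran from -0.29 to -0.070 (lowest without 6C+4CP replicate 2, highest without 6C+4CP replicate 1) and from -0.31 (without 10C replicate 1) to -0.040 (without 10C replicate 2). Both varying probe sets put the same mice low, 10C replicate 1 at 7.95 and 7.87 and 6C+4CP replicates 1 and 3 at 7.82 to 7.97. Pex26, the membrane anchor of that ATPase, held a shared 7.89. Taking the peroxins as a whole, 3 of 12 varying probe sets were higher and 1 lower without overlap (25.0% higher, against 10.8% of all varying probe sets higher and 9.11% lower). Without Pex11a it was 1 of 10 in each direction, which is near those shares.

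**Figure D3:**
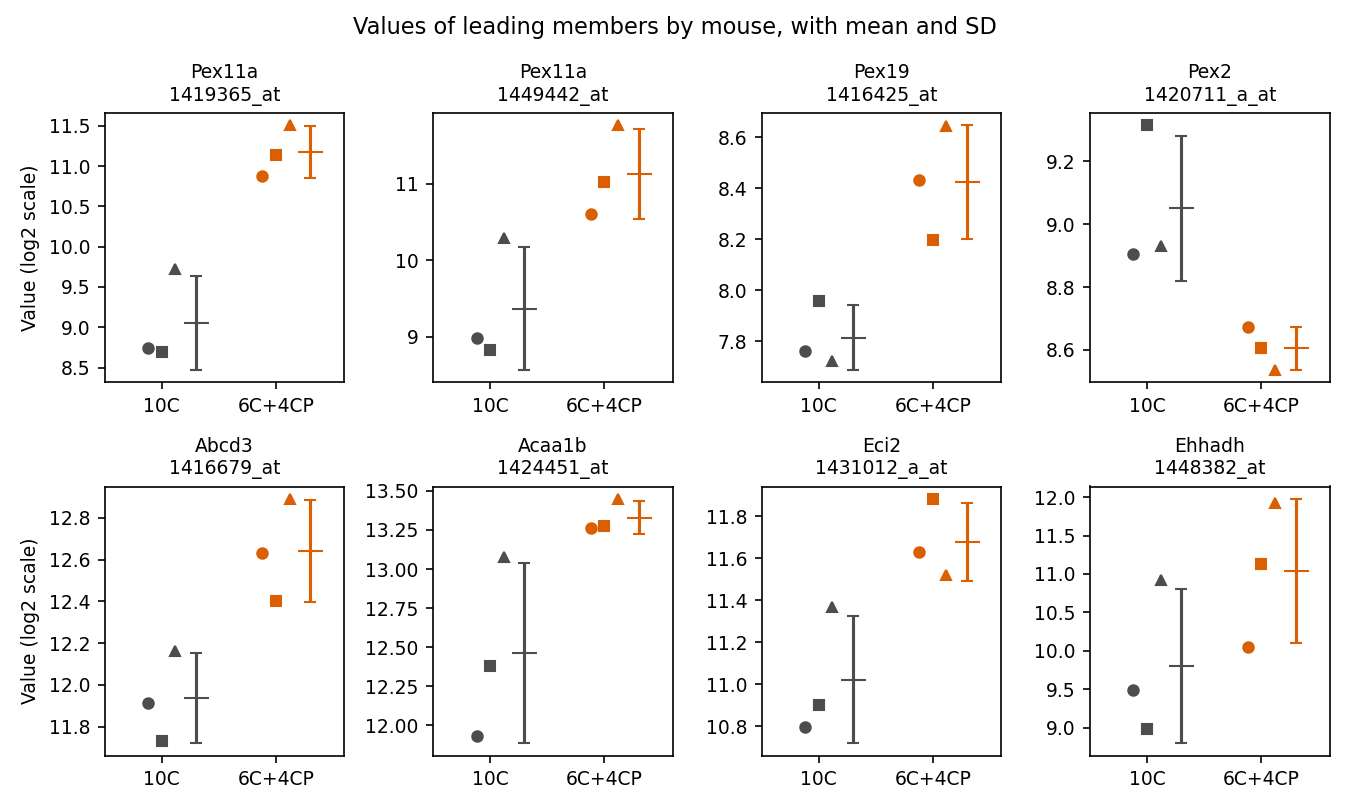
Values (y axes, log2 scale, each panel with its own range) of 8 probe sets in the 3 mice of each diet, with circle, square and triangle for replicates 1, 2 and 3, and the mean with its SD beside them. The panels were picked from the members with large differences. The diets do not overlap in 7 panels, against 11 of the 33 varying member probe sets, and Ehhadh is the panel where they do.

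Of the membrane proteins, Abcd3 alone separated the diets. It is the transporter PMP70, which brings long and branched acyl-CoA into the organelle. On 1416679_at it read 11.91, 11.73 and 12.16 in 10C and 12.63, 12.40 and 12.89 in 6C+4CP. The difference was 0.71 (SE 0.19), or 1.63-fold (limma, adjusted p = 0.883, and 0.171 among varying probe sets). With 1 mouse left out it ran from 0.58 (without 6C+4CP replicate 3) to 0.83 (without 6C+4CP replicate 2), and was 0.82 without 10C replicate 3. A second Abcd3 probe set held a shared 6.38, and all 4 of Abcd2, a transporter of very long-chain acyl-CoA, shared values between 5.75 and 6.12. Pxmp2, a channel protein of the membrane, read 10.58, 10.67 and 11.18 in 10C and 10.43, 10.47 and 10.70 in 6C+4CP. Those diets overlapped, and the difference of -0.27 (SE 0.20) was -0.091 without 10C replicate 3, the highest mouse. Pxmp4 had overlapping values on 1455438_at with a difference of 0.049 (SE 0.31), which ran from -0.12 (6C+4CP replicate 2 left out) to 0.31 (10C replicate 3 left out).

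Among the enzymes of the peroxisomal oxidation spiral the largest difference was that of Ehhadh. Ehhadh, the bifunctional enzyme that hydrates and dehydrogenates straight-chain acyl-CoA, read 9.50, 8.98 and 10.92 in 10C and 10.05, 11.13 and 11.93 in 6C+4CP. Its range of 2.94 was the widest of the members, and the diets overlapped because 10C replicate 3 stood above 6C+4CP replicate 1. The difference was 1.24 (SE 0.78), or 2.36-fold. It was 1.80 without 10C replicate 3, while leaving out 6C+4CP replicate 3 gave 0.79 and 10C replicate 2 gave 0.83. Hsd17b4, the second bifunctional enzyme, which serves branched chains and bile acid precursors, differed by 0.30 (SE 0.084) without overlap on 1455777_x_at and by 0.18 (SE 0.13) with overlap on 1417369_at. The second of these was 0.079 without 10C replicate 1 and 0.31 without 10C replicate 3. Acox3, an oxidase of the first step for branched chains, had only shared values of 6.44 and 6.24.

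The thiolases, which cut acetyl-CoA from the chain in the last step, had higher means in 6C+4CP. Acaa1b read 11.93, 12.38 and 13.07 in 10C and 13.26, 13.27 and 13.45 in 6C+4CP. The 6C+4CP mice lay close together (SD 0.10), and the 10C mice were spread out (SD 0.58), with replicate 3 just below the other diet. The difference was 0.87 (SE 0.33), or 1.83-fold, 1.18 without 10C replicate 3 and 0.60 without 10C replicate 1 (limma, adjusted p = 0.938, and 0.275 among varying probe sets). Acaa1a differed by 0.40 (SE 0.18) without overlap on 1456011_x_at and by 0.28 (SE 0.18) with overlap on 1456737_x_at. Without 10C replicate 1 these were 0.26 and 0.13, and without 10C replicate 3 they were 0.50 and 0.43. The suffix of both marks probes that can bind related transcripts, so the shares of Acaa1a and Acaa1b in these values are uncertain. Scp2, a gene for a sterol carrier and a thiolase of branched chains, read 13.01, 13.07 and 12.80 in 10C and 13.39, 13.10 and 13.17 in 6C+4CP on 1449686_s_at, and differed by 0.26 (SE 0.12) without overlap, or by 0.17 without 6C+4CP replicate 1. Its probe set 1426219_at was shared at 13.19, as was 1419974_at at 9.35, and 1419975_at differed by 0.021 (SE 0.043).

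Enzymes that prepare unsaturated chains also had higher means in 6C+4CP. Eci2, which shifts double bonds, read 10.80, 10.90 and 11.37 in 10C and 11.63, 11.88 and 11.52 in 6C+4CP. The diets did not overlap, and the difference was 0.66 (SE 0.20), or 1.58-fold (limma, adjusted p = 0.938, and 0.208 among varying probe sets). Decr2, a dienoyl-CoA reductase, read 8.92, 9.82 and 10.60 in 10C and 10.01, 10.42 and 10.49 in 6C+4CP. Here 10C replicate 3 was the highest of all mice, and the difference of 0.53 (SE 0.50) was 0.94 without it and 0.10 without 10C replicate 1. Ech1, a dienoyl-CoA isomerase, also had its highest value in 10C replicate 3 (11.46). Its difference of 0.21 (SE 0.26) was 0.027 without 10C replicate 1 and 0.43 without 10C replicate 3. Amacr, the racemase that readies branched chains for oxidation, differed by 0.091 (SE 0.095) with overlap, and by 0.027 without 10C replicate 1.

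Both enzymes of alpha-oxidation, which removes 1 carbon from branched fatty acids such as phytanic acid, had lower means in 6C+4CP. Phyh, the first enzyme, read 12.31, 12.33 and 12.54 in 10C and 12.11, 12.30 and 12.16 in 6C+4CP. It differed by -0.20 (SE 0.091), and by -0.13 without 10C replicate 3. Its diets did not overlap by a narrow margin, 12.31 against 12.30. Hacl1, which cleaves the chain, differed by -0.14 (SE 0.26), or 0.077 without 10C replicate 3, its highest mouse at 11.23.

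In the oxidation group 9 of 12 genes had higher means in 6C+4CP in each of their varying probe sets, 2 had lower means and 1 was shared. Of the 14 varying probe sets 5 were higher without overlap (35.7%, against 10.8% of all varying probe sets) and 1 was lower (9.11% of all). Without 10C replicate 3 it was 10 of 14 higher against 16.7% of all and 1 of 14 lower against 21% of all, and without any 1 of the other mice 5 or 6 higher against 14 to 17.3% of all. With 1 probe set per gene 3 of 10 were higher, against 11.8% of all. The 5 of 14 include Acaa1a 1456011_x_at and Hsd17b4 1455777_x_at, whose probes can bind related transcripts. They also include Scp2 1449686_s_at, while the other varying Scp2 probe set differed by 0.021 with overlap and the rest were shared. In 11 of the 14, 10C replicate 3 was the highest of its diet, against 31.0% of all varying probe sets and 5 of 12 of the peroxins. Set against the mean of the 10C mice, the median over the 14 was -0.22, -0.027 and 0.28 in 10C replicates 1, 2 and 3 and 0.23, 0.33 and 0.24 in the 6C+4CP mice. 10C replicate 3 thus lay among the 6C+4CP mice in this summary. For the peroxins the same medians ran from -0.096 to 0.10 in 10C and from 0.058 to 0.11 in 6C+4CP, and their median difference was -0.0023 without 6C+4CP replicate 3.

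The oxidation median exceeded the peroxin median by 0.23, with a spread between mice of 0.17 (SD within diets), and by 0.045 without 10C replicate 1. No test was made of this contrast, since the members were chosen with results known.

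**Figure D4:**
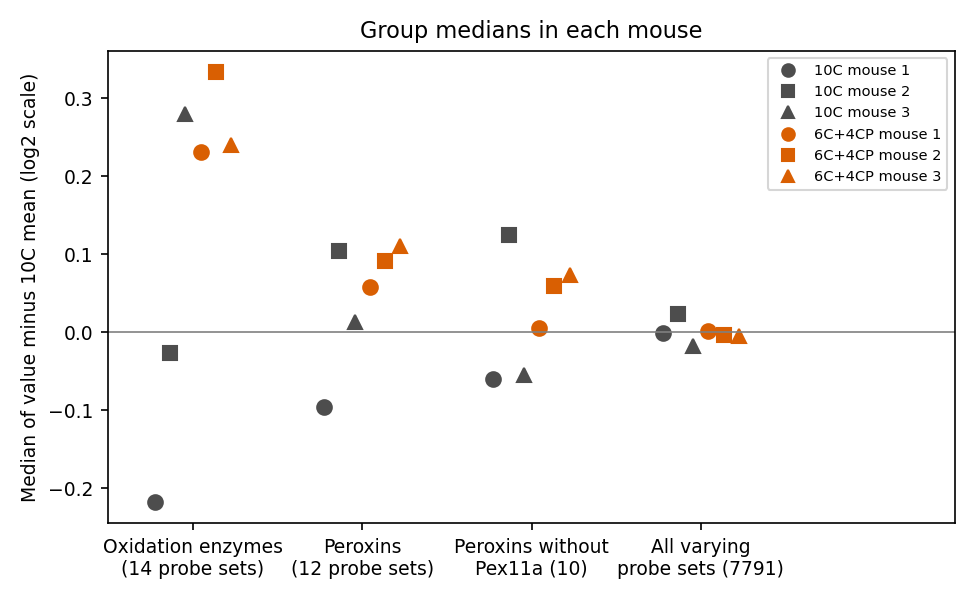
Median over a group's varying probe sets of the value minus the 10C mean (y axis, log2 scale), 1 point per mouse. In the oxidation group 10C replicates 1 and 2 lie below 0 and 10C replicate 3 at 0.28, within the 0.23 to 0.33 of the 6C+4CP mice, and the medians of all varying probe sets stay between -0.017 and 0.023.

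The remaining enzymes overlapped between the diets where they varied. Cat, the catalase that destroys hydrogen peroxide, averaged 12.46 ± 0.069 under 10C and 12.58 ± 0.093 under 6C+4CP on 1416430_at (SD, n = 3), and 12.36 ± 0.033 and 12.39 ± 0.031 on 1416429_a_at, with overlap in both. Pecr, a peroxisomal enoyl-CoA reductase, read 11.19, 11.02 and 11.09 in 10C and 10.80, 10.68 and 11.09 in 6C+4CP. It differed by -0.24 (SE 0.13), with 6C+4CP replicate 3 inside the 10C range. Mlycd, the decarboxylase of malonyl-CoA, was shared at 8.23. Of the ether lipid genes, Gnpat and Agps, which begin the pathway, had only shared values, and Far1, which supplies its fatty alcohol, varied on 1426369_at alone, at 5.93 to 5.97 in 10C and 5.93 to 5.98 in 6C+4CP. Pmp22 had 1 shared value of 6.41.

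Other genes of the organelle and its regulation, from a list of 64 symbols of which 52 had a probe set of their own, gave 53 varying probe sets, 30 higher and 23 lower on average. Without overlap 20 were higher (37.7%, against 10.8% of all varying probe sets) and 3 lower. Among those listed with oxidation it was 14 of 20 higher and 2 lower, over 12 genes, some with several probe sets. That part of the list also holds thioesterases, carnitine acyltransferases, diphosphatases and proteases. Among other matrix enzymes, such as urate oxidase, it was 2 of 14 (14.3%, near the share of all), both of them probe sets of Idh1. Other genes of peroxisome building and division had lower means in 5 of 7 varying probe sets (median difference -0.21). Of these 7, 1 was higher without overlap (14.3%), that of Acbd5, and 1 was lower (against 9.11% of all). Other membrane proteins had lower means in 5 of 6, and 1 was higher without overlap (16.7%). Limma called 1 of the 116 probe sets, against 0.557% of all probe sets. It was 1 of the 53 varying ones, against 0.141% of all varying probe sets in the same fit. The called probe set was Crat 1448544_at, called higher (adjusted p = 0.0137, and 0.486 among varying probe sets). Its means of 6.35 and 6.41 were 0.052 apart and close to the array medians of 6.31. Crat, the carnitine acetyltransferase, differed by 0.38 (SE 0.14) on its brightest probe set and by 1.20 (SE 0.23) on 1417008_at, which was chosen after its values were seen.

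Of these other genes, 10 are described by the smallest limma p, each on its probe set of highest mean. That p was for the same contrast, so the lack of overlap in these 10 follows largely from the choice. The first was Acad11, a peroxisomal acyl-CoA dehydrogenase, which read 10.89, 11.12 and 11.14 in 10C and 11.51, 11.60 and 11.63 in 6C+4CP (difference 0.53, SE 0.086). Acbd5, which ties peroxisomes to the endoplasmic reticulum, read 10.80, 10.67 and 10.60 against 11.61, 11.15 and 11.43, a difference of 0.71 (SE 0.14). Lonp2, a protease of the matrix, differed by 0.54 (SE 0.19), and the diphosphatase Nudt12 by 0.35 (SE 0.10). All 4 lay apart between the diets. The thioesterases Acot3 and Acot4, which release fatty acids from CoA, differed by 2.98 (SE 1.00) and 1.09 (SE 0.41), and Hsdl2, a dehydrogenase-like peroxisomal protein, by 1.11 (SE 0.34). In these 3 genes 10C replicate 3 was again the highest 10C mouse. Acox2, the oxidase of bile acid side chains, was lower, at 10.48, 10.90 and 10.50 against 10.03, 10.05 and 9.79 (difference -0.67, SE 0.16). Ppara, the gene of PPARa, differed by 0.39 (SE 0.094) without overlap on 1439675_at, by 0.27 on 1457721_at, also without overlap, and by 0.057 with overlap on 1449051_at (-0.032 without 10C replicate 1 and 0.20 without 10C replicate 3). Its coactivator Ppargc1a differed by 0.020 (SE 0.23) with overlap.

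**Figure D5:**
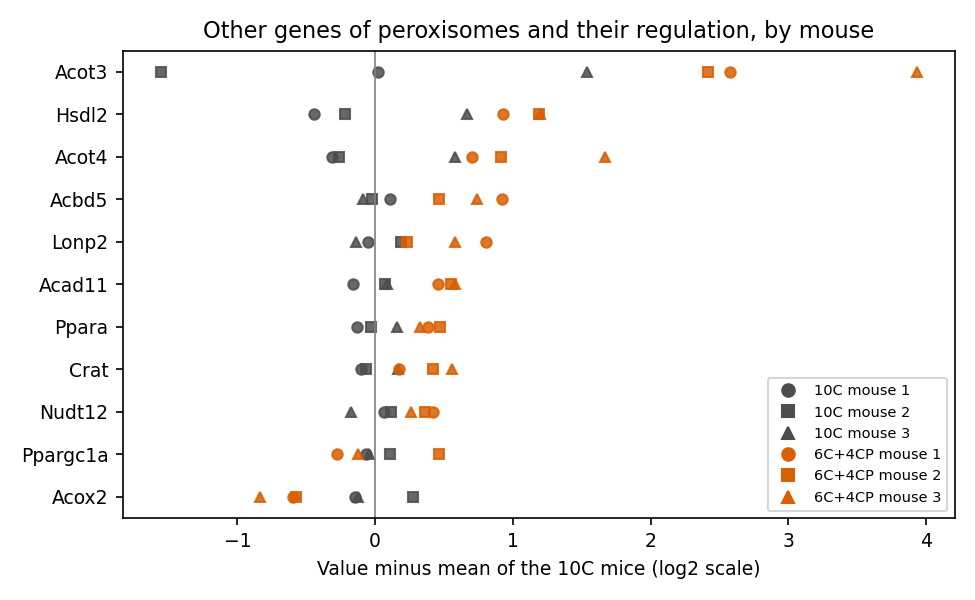
Values of 11 genes outside the member list, 1 point per mouse, as value minus the mean of the 10C mice (x axis, log2 scale). The diets do not overlap in 10 of the 11, with 9 higher and Acox2 lower in 6C+4CP, against 19.9% of all varying probe sets. These 10 were taken by smallest p for the same contrast, so their lack of overlap follows largely from that choice. The diets overlap in Ppargc1a, which was added as a regulator.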

How the data were processed

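Total RNA of 6 livers, 3 per diet, was labelled from 100 ng with an Affymetrix 3' IVT kit, per the labels' protocols. The authors deposited 1 table of processed values on a log2-like scale, used here as deposited. The submitters' processing notes name R 2.7.2, while how background was corrected, how probes were summarised and which log base was used was not given in the sources used here. Of 45101 probe sets 64 controls were left out. The annotation gave 1 symbol for 34945, several for 932 and none for 9160, and only those with 1 symbol name a gene. The values carry no measure of signal over background, and precision is limited by how few arrays there are.

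The main test was a linear model in limma 3.58.1 under R 4.3.3 (lmFit, then eBayes with no trend, 6 arrays, Benjamini-Hochberg over all probe sets, adjusted p under 0.05), as 6C+4CP minus 10C. The fit was also run on simulated data, where the only outcome required was the right sign of large added changes. No limit was set there on false calls. Every member could be named, and from the list of other genes the 10 with the smallest p, on the varying probe set of highest mean, with Ppara and Ppargc1a. Members and lists were chosen with earlier results of these data known. A planned search for targeting signals in protein sequences was not made. The labels give each array its own mouse. Alternatives were other scalings, filters, 1 probe set per gene, a replicate block and leaving out each array. Fits to varying probe sets with arrays left out, the block or a robust trend were added after seeing the data.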

Additional observations from a re-analysis of the deposited data

How the results depend on the processing

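Limma's count of 251 calls was 543 to 673 when 1 array was left out, 418 with the replicate number as a block, 1 after quantile normalization, 0 after median centring, 0 on varying probe sets, 119 above the median level, 100 with 1 probe set per gene and 94 with their mean. The 0 member calls became 0 to 1 without 1 array (shared values of Pex6, Pex14, Agps, Acox3 and Pecr) and 2 with the block (Abcd3, adjusted p = 0.0479, and the shared Mlycd), and stayed at 0 on varying probe sets in each of 9 fits. The labels do not pair the mice by number. Deviations of same-numbered mice correlated at 0.477, -0.0893 and 0.0847, and not every mouse correlated best with its own number. With 3 mice per diet these values do not decide whether mice of the same number share a factor. The 1 call among other genes was 0 to 2 without 1 array and 0 after quantile normalization, median centring, on varying probe sets, with 1 probe set per gene or with their mean. The 5 of 14 oxidation probe sets higher without overlap (10.8% of all varying) were 5 to 10 without 1 array (14 to 17.3% of all) and 3 of 10 with 1 probe set per gene (11.8% of all), and their median of 0.27 was 0.11 to 0.40 without 1 array. The oxidation minus peroxin median of 0.23 was 0.045 (without 10C replicate 1) to 0.35 without 1 array. The difference of Pex3 1454044_a_at reversed to -0.000414 after quantile normalization and -0.000229 after median centring. Without 1 array signs also turned in Pex16 (-0.024 to 0.079), Pex3 1454044_a_at (-0.10 to 0.054), Pex5 (-0.15 to 0.017), Pex7 (-0.0084 to 0.085), Pxmp4 (-0.12 to 0.31), Hacl1 (-0.30 to 0.077), Scp2 1419975_at (-0.016 to 0.057) and Far1 (-0.017 to 0.011). Causes were not tested.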

Other observations

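Both probe sets annotated to Acaa1a and Acaa1b together, which name no single gene, were higher in 6C+4CP without overlap. On 1416946_a_at the 10C mice read 10.53, 11.09 and 11.78 and the 6C+4CP mice 12.17, 12.11 and 12.28, a difference of 1.05 (SE 0.36). On 1416947_s_at they read 11.38, 11.93 and 12.66 against 12.68, 12.73 and 12.93, a difference of 0.79 (SE 0.37). In both, 10C replicate 3 was the highest 10C mouse and replicate 1 the lowest, the order seen in Acaa1b.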
